A study of Mus musculus with 4 samples.

Results

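The T cell receptor gene loci were taken as 3 stretches of the mouse genome (build mm10): chromosome 14 from 52400000 to 54300000, which holds Tra and Trd, chromosome 6 from 40850000 to 41600000, which holds Trb, and chromosome 13 from 19150000 to 19400000, which holds Trg. All ATAC-seq peaks that overlapped them in 4 libraries of regulatory T (Treg) cells were members, without regard to their values. They numbered 395 of 504838 peaks, and peaks of different libraries that overlapped by at least 1 bp joined into 179 of 272233 regions. A region was placed by its strongest summit in the V part (118 regions), in the part with the D, J and constant (C) segments and the enhancer windows (50 regions), or at an unrelated gene inside a stretch, such as Dad1 or Stard3nl (11 regions).

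The study asked how interleukin-2 (IL-2) signals shape the open chromatin of Treg cells. It compared WT mice with Il2ramut/mut mice, homozygous for a point mutation in CD25, the high-affinity chain of the IL-2 receptor, which lowers CD25 on the cell surface. Each genotype had 2 libraries of 50000 RFP+ cells, sorted from lymph nodes (LNs) of unstimulated female mice of 6 to 8 weeks on the C57BL/6 background. All mice carried the Foxp3 Rfp/Rfp reporter, which marks cells that express Foxp3. The mutation arose by chance in a colony of Ccr2-/- mice and was bred onto Ccr2+/+ animals, so the Il2ra genotype and any other allele carried along from that colony cannot be told apart.

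T cell receptors are assembled in the thymus by joining V, D and J segments, with the DNA between the joined segments cut out. The Tra locus holds a long array of V segments (Trav), then Trd, a row of J segments (Traj), the constant segment Trac and an enhancer beyond it, and most of its V segments lie in blocks that were copied in evolution, whose copies carry a d or an n in their names. In a mature Treg cell, which uses an alpha and a beta chain, each chromosome keeps its own join, so that a V segment can be kept, joined or cut out, and the transposase of ATAC-seq reads what remains of all of them in the sorted population. Fewer cells with an open segment and a less open segment in every cell cannot be told apart in such bulk data.

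WT replicate 1 had a list of 112569 peaks and WT replicate 2 one of 126761, against 122776 in Il2ramut/mut replicate 1 and 142732 in Il2ramut/mut replicate 2. Below, 4 values in a row follow this order. They give the authors' fold enrichment (summit reads against the library's background), the −log10 p of the same summit, the whole number of reads at the summit that the fold enrichment stands for, or the percentile, the rank of a peak by −log10 p among all peaks of its own library. The weakest summits called had 5, 5, 6 and 5 reads, and the median summits 8, 8, 10 and 8 reads. The background that the folds stand on was 0.974, 0.979, 1.23 and 1.06 reads, higher in both Il2ramut/mut libraries than in both WT libraries. No read totals are given and the sequencing depth itself is unknown. Folds and reads of different libraries are therefore shown side by side and are not amounts on a common scale.

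The sequences at 3 summits called in all 4 libraries show what the open segments look like, and all are given from mm10 on the plus strand. Capitals mark the words TGACGTCA (the cyclic AMP response element, CRE) and TGATGTCA (a variant of it), TGTGGT (bound by RUNX factors), CTTTGA (TCF/LEF), AGGAAG (ETS) and CAGGTG (an E-box), on either strand. The strongest summit between Trac and Dad1 lay 3431 bases beyond Trac, where the Tra enhancer is known to lie, and is shown with the bases before it (chr14:54227437-54227736). The strongest summit between Trbc2 and Trbv31, the site of the Trb enhancer, is shown next (chr6:41554444-41554643), and then the promoter side of Trbv12-1, the V segment of Trb with the highest lowest percentile (chr6:41113285-41113484).
Trac-Dad1 window: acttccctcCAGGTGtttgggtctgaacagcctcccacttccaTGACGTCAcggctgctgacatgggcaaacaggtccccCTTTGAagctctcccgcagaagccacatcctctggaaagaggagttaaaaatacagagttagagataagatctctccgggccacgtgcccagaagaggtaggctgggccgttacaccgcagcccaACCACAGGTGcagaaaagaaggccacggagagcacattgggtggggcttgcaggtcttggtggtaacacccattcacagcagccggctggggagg
Trbc2-Trbv31 window: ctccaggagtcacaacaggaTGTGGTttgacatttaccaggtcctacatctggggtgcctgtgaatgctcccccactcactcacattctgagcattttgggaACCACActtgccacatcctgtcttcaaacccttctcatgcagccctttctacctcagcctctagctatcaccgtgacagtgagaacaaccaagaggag
Trbv12-1: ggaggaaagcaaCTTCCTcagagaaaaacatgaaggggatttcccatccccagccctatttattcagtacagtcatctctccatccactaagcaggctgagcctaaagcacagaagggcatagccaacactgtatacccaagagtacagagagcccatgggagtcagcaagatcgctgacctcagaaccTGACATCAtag
The CRE word occurred 1 time in the 11.3 kb between Trac and Dad1, 157 bases before the strongest summit, with a TCF/LEF word 120 bases before it and an overlapping pair of a RUNX word and an E-box at 5 and 9 bases after it. Between Trbc2 and Trbv31 the strongest summit had RUNX words 80 bases before and 2 bases after it.

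Copies of Trav segments are shown because near-identical copies were not called alike. Trav10n is shown at its summit (chr14:53121842-53121991) with the best ungapped match near Trav10d (chr14:52810725-52810874) and Trav10 (chr14:53505518-53505667), with capitals at the 6 of 150 positions where the 3 copies are not all the same.
Trav10n: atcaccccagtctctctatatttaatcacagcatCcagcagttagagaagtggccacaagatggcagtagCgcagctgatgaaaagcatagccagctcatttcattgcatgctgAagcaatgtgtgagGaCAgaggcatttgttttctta
Trav10d: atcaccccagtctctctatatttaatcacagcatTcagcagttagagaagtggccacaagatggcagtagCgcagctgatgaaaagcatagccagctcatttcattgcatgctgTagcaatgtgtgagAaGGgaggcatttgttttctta
Trav10: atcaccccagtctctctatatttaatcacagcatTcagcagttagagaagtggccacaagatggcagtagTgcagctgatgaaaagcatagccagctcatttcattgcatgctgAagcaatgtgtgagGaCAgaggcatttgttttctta
Trav15n-3 (chr14:53374739-53374938) is shown in the same way with Trav15d-3 (chr14:53081981-53082180) and Trav15-3 (chr14:53766653-53766852), with capitals at 5 of 200 positions.
Trav15n-3: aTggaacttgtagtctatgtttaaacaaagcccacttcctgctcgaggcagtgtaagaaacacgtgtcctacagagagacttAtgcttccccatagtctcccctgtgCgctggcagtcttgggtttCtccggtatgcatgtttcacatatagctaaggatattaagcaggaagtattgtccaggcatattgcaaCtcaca
Trav15d-3: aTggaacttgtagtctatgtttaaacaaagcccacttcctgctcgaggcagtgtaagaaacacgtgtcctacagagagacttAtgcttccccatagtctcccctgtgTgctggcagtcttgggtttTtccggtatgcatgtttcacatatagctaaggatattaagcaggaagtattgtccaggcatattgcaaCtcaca
Trav15-3: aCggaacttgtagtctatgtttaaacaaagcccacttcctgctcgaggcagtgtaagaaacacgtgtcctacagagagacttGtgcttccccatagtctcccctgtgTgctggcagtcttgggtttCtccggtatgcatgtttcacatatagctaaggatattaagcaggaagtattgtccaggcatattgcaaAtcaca
Trav10d was called in all 4 libraries, with 11, 16, 12 and 7 reads at the summit, whereas Trav10n (7 and 12 reads) and Trav10 (10 and 18 reads) were called in both WT libraries and in neither Il2ramut/mut library. Trav15d-3 was called in all 4 with 22, 79, 17 and 22 reads, and Trav15n-3, which has 99% of the shown bases in common with it, in WT alone with 13 and 35 reads. Trav15-3 was called in WT replicate 2 with 13 reads and in Il2ramut/mut replicate 2 with 11 reads. The strongest summits of Trav15d-3 (chr14:53081978) and Trav15-3 (chr14:53766651) lay just before the first base shown, so they do not match the summit of Trav15n-3 base for base. Those of Trav10d (chr14:52810740) and Trav10 (chr14:53505542) lay inside the bases shown. They stood nearer to the first base than that of Trav10n (chr14:53121917), so these do not match either.

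The V part of Tra and Trd held far more peaks in WT than in Il2ramut/mut Treg cells. WT replicates had 45 and 80 peaks there, against 10 and 16 in the mutant, although the longest list was that of Il2ramut/mut replicate 2. Per 10000 peaks of a library these were 3.998, 6.31, 0.815 and 1.12, a difference of −4.19 that separated the genotypes (exact permutation test over libraries, two-sided, p = 0.333, the smallest that 2 against 2 libraries allow). Both WT libraries stood above both Il2ramut/mut libraries, and WT replicate 2 also stood well above WT replicate 1. The shares of the V parts of Trb (1.42, 1.97, 1.06 and 1.47 per 10000) and Trg (0.533, 0.473, 0.326 and 0.350 per 10000) differed less, with overlapping genotypes in Trb.

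**Figure D1:**
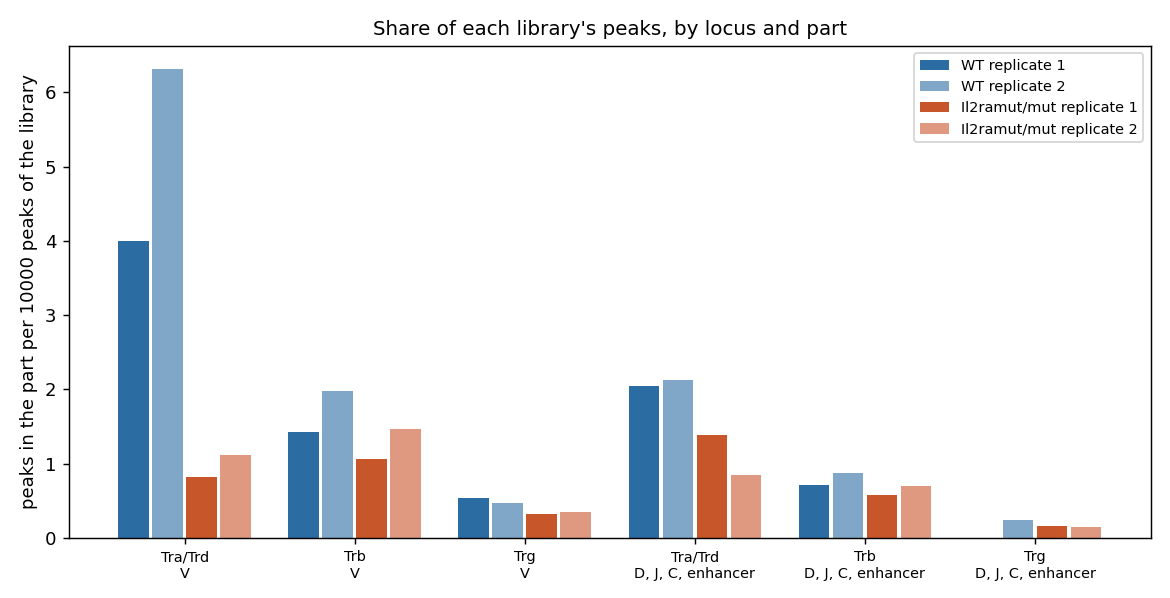
Peaks in each part of the loci per 10000 peaks of the library, 1 bar per library, from 0, without error bars. In the V part of Tra and Trd the WT bars stand at 3.998 and 6.31 and the Il2ramut/mut bars at 0.815 and 1.12.

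Over all loci together the shares were 9.24, 12.5, 4.64 and 5.26 per 10000 (difference −5.94), in the V part 5.95, 8.76, 2.20 and 2.94 (difference −4.78), and in the D, J, C and enhancer part 2.75, 3.23, 2.12 and 1.68 (difference −1.09). Each had an exact permutation p of 0.333, or 0.381 after Benjamini-Hochberg adjustment over the 8 comparisons made of this kind. The direction was the same in all 3, and no test of this size can pass a threshold of 0.05.

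Joined into regions, the same V part held many regions called in WT alone. Of its 82 regions, 28 (34.1%) were called in both WT libraries and in neither Il2ramut/mut library, against 2.7% of all regions of the genome, and none showed the opposite pattern, against 3.56% of all regions. Of the 41 regions called in both WT libraries, 68.3% were called in neither Il2ramut/mut library, against 13.1% over the genome. Without WT replicate 1 the count was 64 (20.4% of all regions then have the pattern), since a call in WT replicate 2 alone was then enough, and without WT replicate 2 it was 31 (18% of all regions). In the other parts the pattern was seen in 5 of 33 D, J, C and enhancer regions of Tra and Trd, in 4 of 28 V regions and none of 14 D, J, C and enhancer regions of Trb, and in none of the 15 regions of Trg.

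**Figure D2:**
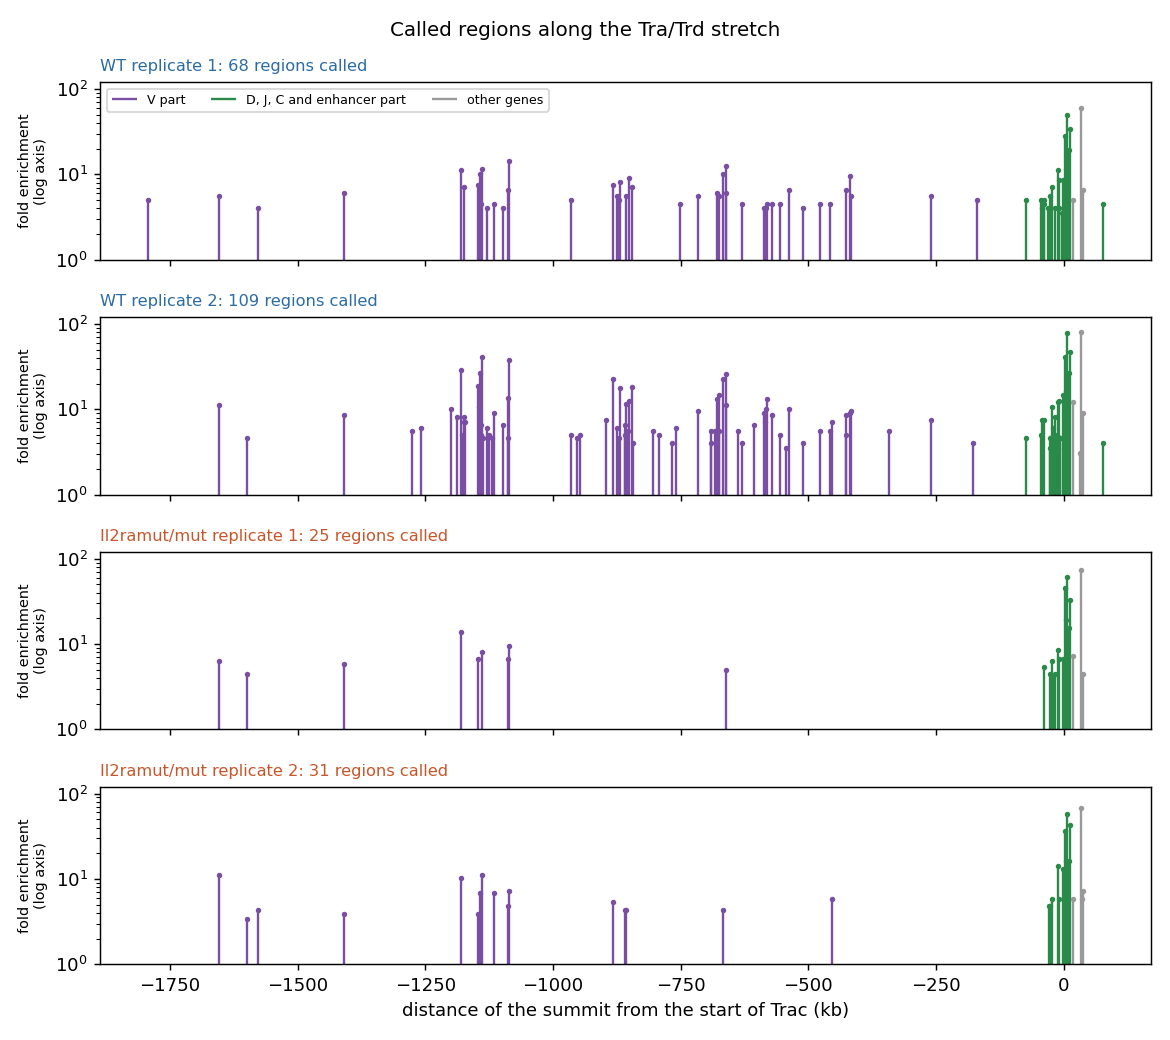
Fold enrichment (log axis) of each region called along the Tra and Trd stretch, 1 panel per library, against the distance of its summit from the start of Trac. Lines at −1000 to −400 kb are many in both WT panels and few in both Il2ramut/mut panels, while tall lines stand at Trac and beyond it in all 4.

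Peaks were counted by distance from the start of Trac (negative before it). The counts of the genotypes lay apart mostly between −1200 and −400 kb and between −200 and 0 kb. Between −600 and −400 kb, the libraries had 12, 16, 0 and 1 peaks, and 12 of the 16 regions there had the WT-only pattern. Between −1000 and −800 kb they had 8, 17, 0 and 3 peaks. Between −1200 and −1000 kb they had 11, 21, 6 and 7, and between −800 and −600 kb 8, 17, 1 and 1. Between −200 and 0 kb, where the J segments lie, they had 16, 22, 8 and 6 peaks. Of the 29 regions there 4 had the WT-only pattern. Few peaks lay in 2 stretches, with 0, 3, 0 and 0 between −1400 and −1200 kb and 1, 2, 0 and 0 between −400 and −200 kb. At the far end, from −1800 to −1400 kb, with 18 V segments, the counts were 4, 3, 3 and 4, so that the genotypes overlapped. From Trav11n to Traj26, over 1059 kb, none of 61 regions was called in all 4 libraries or in both Il2ramut/mut libraries, 27 were called in WT alone, and the peaks numbered 36, 58, 2 and 6. These limits were read from the calls themselves, and the counts inside them are a description.

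Of the 136 Trav and Trdv segments, 35 and 48 had a summit within 1 kb in WT, against 8 and 13 in Il2ramut/mut. This held for 21 segments in both WT libraries and neither Il2ramut/mut library, for 6 in all 4 and for none in Il2ramut/mut alone, while 86 segments had no summit in any library. Segments without a copy letter, which lie at both ends of the array, gave 17, 25, 3 and 4 of 57. The n copies gave 11, 14, 2 and 5 of 34, and the d copies 5, 7, 3 and 4 of 39. Of the 21 pseudogenes among these segments 3, 6, 2 and 3 had a summit. Summits tended to lie on the promoter side: of 59 regions within 1 kb of a Trav or Trdv segment, 37 had the summit before the segment's start, 30 of them within 300 bases, 12 inside it and 10 after its end.

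The 28 V regions called in WT alone lay 259.5 to 1173 kb before Trac, 21 of them within 1 kb of a segment. Their reads at the summit ran from 7 to 18 (median 9.5) in WT replicate 1 and from 7 to 35 (median 16) in WT replicate 2, and replicate 2 was higher in 23, equal in 2 and lower in 3. The strongest, by the lower of its percentiles, were Trav14n-3, with fold enrichments of 9.12 and 12.6 and −log10 p of 16.4 and 25.8, Trav16n, with folds of 8.11 and 17.7, and a region 3968 bases before Trav17, with folds of 9.63 and 9.09. These reached the percentiles 85.1 and 86.8, 83.2 and 90.5, and 86.0 and 82.1, well above the weakest calls of these libraries. Trav15n-3, Trav16d-dv11 and Trav4-4-dv10 and the V segment B230359F08Rik also stood above the 78th percentile in both WT libraries. At the low end, Trav6-7-dv9 had 7 and 7 reads. The remaining ones were at Trav7n-4, Trav10n, Trav8n-2, Trav10, Trav13-1, Trav15-1-dv6-1, Trav9-2, Trav13-2, Trav14-2, Trav15-2-dv6-2, Trav3-3, Trav16, Trav14-3 and the Trd segment Trdv2-2, and 7 lay more than 1 kb from the segments Trav14d-3-dv8, Trav13n-2, Trav16n, Trav12-1, Trav13-2 and Trav17.

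Only 7 V regions of Tra and Trd were called in all 4 libraries, all of them more than 1000 kb before Trac. Trav11n, 133 bases before its start, had fold enrichments of 14.2, 37.9, 9.42 and 7.29 and −log10 p of 30.2, 110.5, 18.3 and 12.2. Trav15d-3 had folds of 11.7, 40.4, 8.07 and 11.2. A region 2794 bases before Trav8d-2 had folds of 11.1, 28.8, 13.9 and 10.2. In all 3 the highest value by far was that of WT replicate 2. Trav13d-4 (14, 36, 14 and 7 reads), Trav6n-6 (12, 26, 14 and 9 reads) and Trav10d were weaker. Trav2, at the far end of the array, had 10, 21, 13 and 22 reads, so the genotypes overlapped.

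Relative to the strongest Trac-Dad1 summit of the same library, a measure chosen after the values had been seen, these 7 regions had on average 17.2, 28.6, 12.5 and 12.1% of its reads (difference −10.6 percentage points, exact permutation p = 0.333). Trav11n stood at 27.8, 48.1, 14.6 and 11.8%. The 9 V regions of Trb called in all 4 libraries stood at 16.6, 16.5, 15.4 and 16.9% (difference −0.411) and the 4 of Trg at 22.7, 20.8, 20.1 and 22.3% (difference −0.559), with overlapping genotypes in both. Both percentiles of Il2ramut/mut lay below both of WT in 3 of the 7 Trav regions and in 9 of the 40 regions of the loci called in all 4 libraries, or 22.5%, against 12.6% of all such regions of the genome. Both lay above in none of the 7 and in 6 of the 40 (15%), against 26.2% over the genome.

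**Figure D3:**
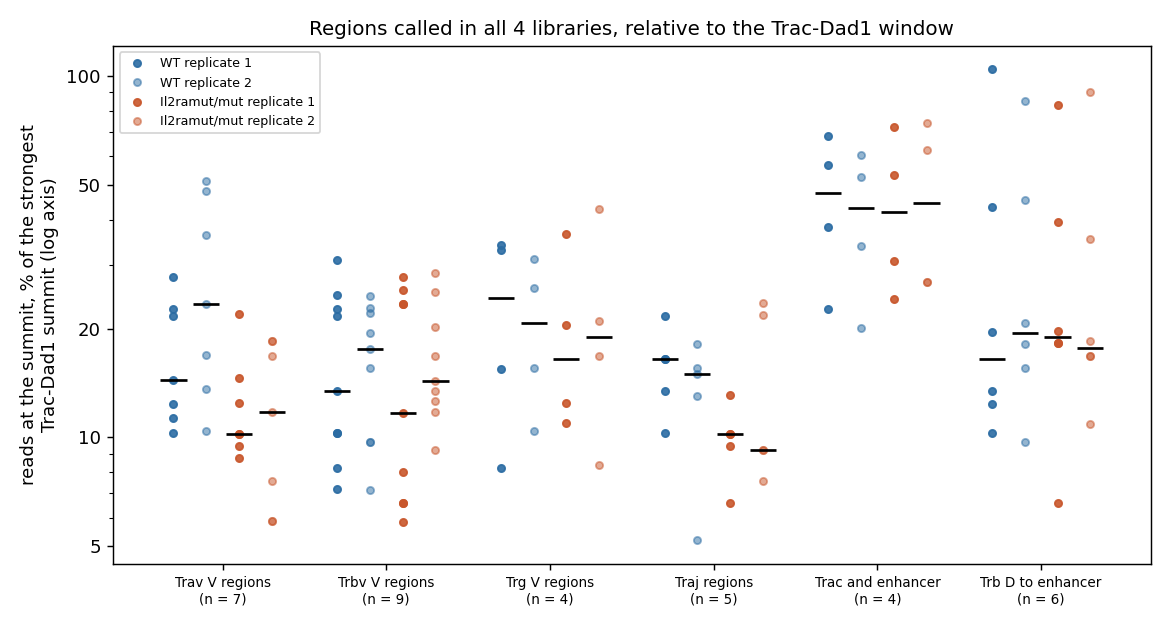
Reads at the summit of regions called in all 4 libraries, as a percentage of the reads at the strongest Trac-Dad1 summit of the same library (log axis), 1 point per region and a line at the median of each library. The highest Trav points stand at 27.8 and 51.3% in WT replicates 1 and 2 and at 21.9 and 18.5% in Il2ramut/mut replicates 1 and 2. The ranges of the libraries overlap.

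Much of the Trav array is repeated sequence. In its V regions a median of 34.8% of all 50-base words occurred more than once in the genome (range 0 to 90.2%), against a median of 0% in the V regions of Trb, in the D, J, C and enhancer part and over the genome. The sources used here give no filter on mapping quality, and reads that match several copies equally well have no single place. The WT-only pattern was seen in 3 of 12 Tra and Trd V regions without a repeated word (25%), in 21 of 57 with up to 50% of repeated words, those 12 included (36.8%), and in 7 of 25 above that (28%). Both regions before Trav17 and the one at Trdv2-2 had no repeated word.

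The stretches next to the locus did not share the pattern. In the 2 Mb before it, 1 of 93 regions was called in WT alone and the libraries had 47, 68, 52 and 59 peaks. In the 2 Mb after it, 5 of 122 regions were, with 98, 108, 86 and 103 peaks. On the rest of chromosome 14, 3.08% of 15745 regions were called in WT alone and 3.82% in Il2ramut/mut alone.

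At the other end of the Tra locus, the constant and enhancer regions were among the strongest peaks of every library. The Trac-Dad1 window held 4 regions, all called in all 4 libraries. The strongest (chr14:54226481-54228612) had fold enrichments of 49.6, 78.3, 61.9 and 58.3, −log10 p of 155.5, 275.5, 225.0 and 196.4, and percentiles of 99.04, 99.4, 99.3 and 99.2. The second, with its summit 9262 bases beyond Trac, had folds of 33.9, 47.5, 33.2 and 43.3, and the others, 7116 and 1130 bases beyond Trac, had folds of 19.3, 26.8, 15.3 and 16.04, and of 11.7, 16.2, 19.3 and 16.04. The folds of the genotypes overlapped in the first and the second and in the last, and the one 7116 bases beyond Trac was lower in both Il2ramut/mut libraries. By percentile the one 1130 bases beyond Trac was higher in both Il2ramut/mut libraries (88.6, 89.6, 93.1 and 92.6, exact permutation p = 0.333).

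The region over Trac itself (chr14:54221628-54223609), which encodes the constant part of the alpha chain, had folds of 28.4, 41.4, 44.9 and 36.5 and percentiles of 96.6, 97.1, 98.3 and 97.6. Its reads were 56.7, 52.6, 72.3 and 62.2% of those at the strongest enhancer summit, higher in both Il2ramut/mut libraries (difference 12.6 percentage points, exact permutation p = 0.333). Neither the window between Trdj2 and Trdc, where the Trd enhancer lies, nor that between Trdv5 and Traj61, which holds the TEA promoter at the head of the J segments, had a summit in any library. The region over Trdc, the constant segment of the delta chain, was weak and called in WT alone, with 9 and 8 reads, and no Trdd segment had a summit within 1 kb.

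Among the 60 Traj segments, 22 and 27 had a summit within 1 kb in WT, against 15 and 10 in Il2ramut/mut, with 7 in all 4 and 7 in both WT libraries alone. Neighbouring segments lie closer than 1 kb in places, so 1 summit can count for several. The 5 regions called in all 4 libraries were at Traj1, Traj7, Traj8, Traj22 and Traj26, none of them farther from Trac than Traj26. Traj8 had 21, 23, 18 and 28 reads, Traj1 had 16, 28, 14 and 26, and Traj7 had 16, 24, 14 and 11. The regions at Traj42, Traj39 and Traj15 were called in WT alone, with 9 and 9, 7 and 14, and 7 and 15 reads. Together the 5 shared J regions had 15.7, 13.4, 9.93 and 14.3% of the reads at the enhancer summit, so the genotypes overlapped. The last WT-only region of this part lay 73025 bases beyond Trac, past Dad1, with 8 and 7 reads, and had 89.3% of repeated words.

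The Trb locus, which encodes the beta chain, held 24, 37, 20 and 33 peaks, so that the counts of the genotypes overlapped, and 44 regions, of which 15 (34.1%) were called in all 4 libraries, against 14.1% of all regions and 20 of 120 in Tra and Trd. The enhancer summit between Trbc2 and Trbv31 had fold enrichments of 51.7, 66.7, 51.6 and 52.5, −log10 p of 163.6, 225.7, 178.7 and 171.9 and percentiles of 99.1, 99.03, 98.8 and 98.9. A second region in the window, about 1 kb before it, had folds of 21.8, 35.9, 24.7 and 20.9, another, 62 bases from Trbv31, had folds of 5.57, 8.08, 4.49 and 6.80, and the last was called in WT replicate 2 alone with 10 reads. In all 3 shared regions the highest fold was that of WT replicate 2. By percentile the enhancer summit was slightly lower in both Il2ramut/mut libraries (exact permutation p = 0.333), and the other shared regions overlapped.

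Both D segments of Trb were marked in all libraries. The region at Trbd1 had folds of 10.1, 16.7, 11.7 and 11.2 and that at Trbd2 had folds of 7.09, 14.7, 12.6 and 10.2. The J2 row had a region in all 4 libraries, with its summit nearest to Trbj2-7 and folds of 6.59, 12.6, 11.7 and 10.2. Its percentiles (78.2, 86.8, 88.3 and 88.2) were higher in both Il2ramut/mut libraries (exact permutation p = 0.333). Of the 14 Trb J segments, 7 and 7 had a summit within 1 kb in WT, against 9 and 13 in Il2ramut/mut. This is the opposite direction to that of the Traj segments, but here too 1 summit can count for several segments. The peaks placed at Trb J segments numbered only 2, 2, 2 and 4, so that Il2ramut/mut replicate 1 equalled both WT libraries. Trbc1, one of the constant segments, had 2 regions, with 10 and 7 reads in WT replicate 2 alone, and no summit lay within 1 kb of Trbc2. The genotypes overlapped at Trbd1 and Trbd2.

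**Figure D4:**
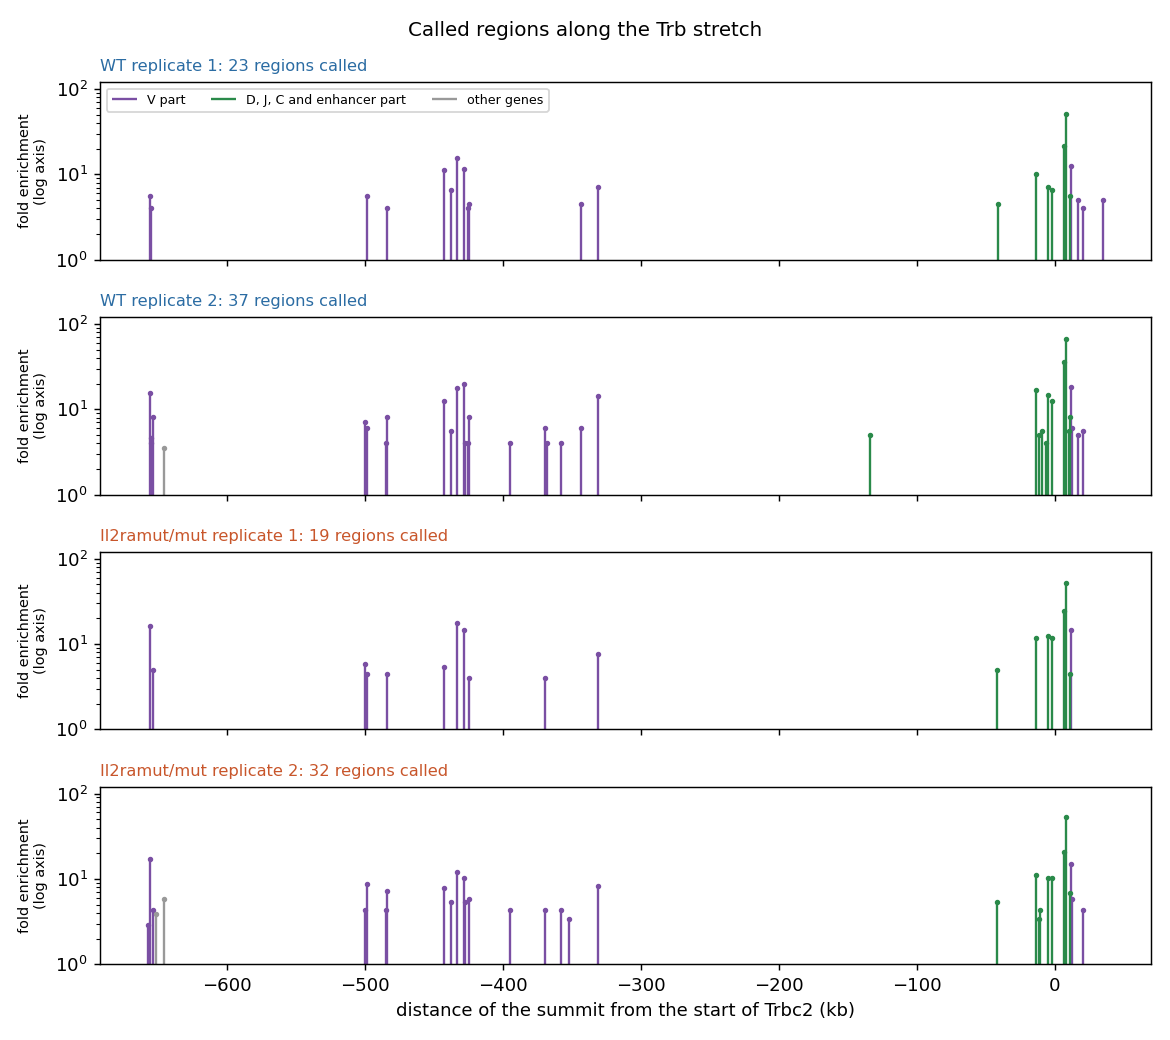
Fold enrichment (log axis) of each region called along the Trb stretch, 1 panel per library, against the distance of its summit from the start of Trbc2. The tallest line in each panel is the enhancer summit, with folds of 51.7, 66.7, 51.6 and 52.5. Of the 28 V regions, 9 have a line in all 4 panels.

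V segments of Trb were few but shared. Of 35 segments 10, 13, 9 and 11 had a summit within 1 kb, 9 of them in all 4 libraries, 1 in both WT libraries alone and none of the 13 pseudogenes in any library. The 5 strongest by their lowest percentile were Trbv12-1, Trbv31, Trbv12-2, Trbv23 and Trbv1. Trbv12-1 had folds of 15.7, 17.7, 17.5 and 12.2, Trbv12-2 had 11.7, 19.7, 14.8 and 10.2, and Trbv31, the V segment beyond the constant segments, had 12.7, 18.2, 14.8 and 15.1. The genotypes overlapped in each of these. Trbv1 was higher in both Il2ramut/mut libraries, with folds of 5.57, 15.7, 16.2 and 17.0 and percentiles of 70.7, 89.3, 91.6 and 93.0 (difference 12.3, exact permutation p = 0.333), and WT replicate 1 stood far below the others. The 4 WT-only regions of the locus, at Trbv1, Trbv13-2, Trbv21 and 5001 bases from Trbv31, had 7 to 11 reads, and the last of them had 82.4% of repeated words. The only region of all loci called in Il2ramut/mut alone lay here, 28109 bases before Trbd1, with 10 reads in each. Without WT replicate 2 such regions of the loci numbered 7, without Il2ramut/mut replicate 1 they numbered 8, and without Il2ramut/mut replicate 2 they numbered 2, when 7.42, 27.1 and 22.6% of all regions have the pattern.

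The Trg locus, which encodes the gamma chain of another lineage of T cells, had 9, 11, 7 and 10 peaks in 15 regions. Tcrg-V7 had a region 163 bases from its start in all 4 libraries, with 8, 24, 17 and 10 reads. Stronger regions lay farther from segments, one 2486 bases before Tcrg-V4 with folds of 17.2, 24.8, 22.9 and 25.3 and one 15808 bases before Tcrg-V7 with folds of 16.7, 20.7, 13.0 and 12.6. No C or J segment of Trg had a summit within 1 kb, and of the 4 windows of 10 kb beyond the C segments the one beyond Tcrg-C4 held 2 regions, one with 10, 16 and 11 reads in WT replicate 2 and both Il2ramut/mut libraries and one with 6 reads in WT replicate 2 alone. The folds of the Trg V regions called in all 4 libraries overlapped between the genotypes, except at the one 15808 bases before Tcrg-V7, where both Il2ramut/mut folds were lower. By percentile the one before Tcrg-V4 was higher in both Il2ramut/mut libraries (92.8, 93.6, 94.5 and 95.8).

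Between the parts, V segments were the more sparsely marked. Peaks per Mb in the V part were 29.8, 49.4, 12.01 and 18.7, in the D, J, C and enhancer part 74.0, 97.8, 62.1 and 57.3, and over the rest of the genome 42.5, 47.9, 46.4 and 53.9. The V part was thus below the D, J, C and enhancer part in all 4 libraries (mean log2 ratio −1.57, exact sign-flip test, two-sided, p = 0.125, the smallest that 4 libraries allow) and below the rest of the genome in 3 of 4 (mean log2 ratio −0.99, p = 0.25, exact), WT replicate 2 being even with it (log2 ratio 0.04). The median percentile of the V peaks minus that of the D, J, C and enhancer peaks was 0, 8.14, −4.09 and −16.8 (mean −3.20, exact sign-flip p = 0.75), so no common direction was seen. The mean was 1.35 without Il2ramut/mut replicate 2 and −6.97 without WT replicate 2. With peaks of a −log10 q of at least 3 alone it was −9.82 and all 4 libraries had the same direction (exact sign-flip p = 0.125). The median percentile of all peaks in the loci was 70.7, 71.3, 80.6 and 76.5, higher in both Il2ramut/mut libraries (difference 7.59, exact permutation p = 0.333). With the same number of top peaks from each library the difference was 3.58 and the genotypes were no longer separated (exact permutation p = 1.0).

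Of the words searched at summits, the RUNX word was the one most often found in the V regions of Tra and Trd beyond its share of the genome. It was not particular to them and did not mark the regions called in WT alone. Within 300 bases centred on the summit, the RUNX word was found in 35 of 82 V regions of Tra and Trd (42.7%), in 9 of 28 of Trb (32.1%) and in 23.4% of the windows of all regions. All 9 of Trb were among the 19 V regions within 1 kb of a Trb segment (47.4%). In the V regions of Tra and Trd called in WT alone it was found in 12 of 28 (42.9%), and in the others in 23 of 54 (42.6%). The CRE variant was found in 3 Trb V windows, at Trbv12-1, Trbv13-2 and Trbv23, against 2.11% of all windows, and in none of the Tra and Trd V windows. CACAGTG, the heptamer of the recombination signal that flanks every V segment, was found in 16.9% of V windows and 10.3% of all windows. It was not particular to the V part, being found in 16% of the D, J, C and enhancer windows. Such matches describe the letters in a window and no binding.

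The genes that serve these loci gave a check of the cell type. The promoters of Cd3d, Cd3e, Cd3g and Cd247, whose products carry the receptor to the surface, had a peak within 1 kb of a start site in all 4 libraries, at percentiles of 88.2 to 98.5, and Ptcra, the partner of the beta chain in the thymus, had none. Of the recombination genes, Rag1 and Rag2 had no peak and Dntt a weak one in 2 libraries (percentiles 7.55 and 25.4 in WT replicate 2 and Il2ramut/mut replicate 2). All 5 Treg markers (Foxp3, Il2ra, Ctla4, Ikzf2 and Cd4) had a peak in all 4 libraries. Il2ra, the gene that carries the mutation, was lower in both Il2ramut/mut libraries (94.6, 95.1, 89.8 and 91.2), and Foxp3 varied widely within WT (47.8, 96.7, 72.6 and 79.7).

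Markers of other cells were mostly closed. Cd79a and Ms4a1 of B cells, all 3 myeloid markers (Lyz2, Csf1r and Itgam) and both NK cell markers (Ncr1 and Klrb1c) had no peak in any library, while Pax5 had one in all 4, at percentiles of 83.2 to 89.1. Of the CD8 T cell markers, Cd8a had none and Cd8b1 one in all 4, at percentiles of 84.2, 84.5, 66.2 and 76.5, lower in both Il2ramut/mut libraries. Of the markers of gamma-delta T cells, Sox13 had one in all 4 (62.4, 76.7, 76.4 and 71.4), Zbtb16 in Il2ramut/mut replicate 1 alone and Trdc none within 1 kb of its start. Cd4 itself was lower in both Il2ramut/mut libraries (83.2, 83.8, 76.4 and 71.4). The part of other cells in the Trav difference was not tested.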

How the data were processed

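ATAC-seq was run on LN Treg cells of WT and Il2ramut/mut mice, 2 libraries per genotype, grouped by their titles. The authors mapped reads to mm10 with BWA (0.7.13), removed duplicated and mitochondrial reads, kept concordant pairs and ran MACS2 (2.1.0) on shifted reads for narrow peaks, and each library has its own list. The submitters' processing notes also name Trim Galore (0.3.7), SAMtools (0.1.19) and Picard (1.92), without their roles. Each deposited peak list holds the fold enrichment (a ratio) at the summit, the −log10 p-value, the −log10 q-value and a score of 10 times the −log10 q, all the authors' values. No read totals are given, so the depth is unknown and p-values of tests measure only the spread between 4 libraries.

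Reads at a summit were recovered from the fold enrichment, which is (reads + 1) over (background + 1). The value was whole, within 0.05 reads, in 100% of peaks, and ranking by fold or by −log10 p gave the same order. Segments came from GENCODE (178 V, 4 D, 80 J and 8 C, of which 34 V and 10 J are pseudogenes), sequences from RefSeq GRCm38. A peak belonged to a segment within 1 kb of its summit, otherwise to an enhancer window, another gene, or the class of the nearest segment. Enhancer windows, which came first, were the stretches from Trac to Dad1, Trbc2 to Trbv31, Trdj2 to Trdc and Trdv5 to Traj61, and 10 kb beyond each Trg C segment.

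Members, lists and rules were chosen with earlier results of these data known. One marker of the lists is not reported here. Named are the regions in enhancer windows and within 1 kb of C or D segments, per locus the 5 V and 5 J segments with the highest lowest percentile among regions called in all 4 libraries, and the regions called in both libraries of 1 genotype alone. Others are named after their values were seen. Genotypes were compared by exact permutation tests over libraries, parts within a library by exact sign-flip tests. The alternatives were a −log10 q of at least 3, equal list lengths, a distance of 500 bp, midpoints, joining at 50% overlap, ranking by fold, leaving out repeated words, a replicate block and leaving out each library. The steps were tested on made-up peaks, and 6 of 6 checks came out as set. Python (3.11.15), pandas (2.3.3), numpy (2.4.6) and matplotlib (3.10.9) were used.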

Additional observations from a re-analysis of the deposited data

How the results depend on the processing

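Of 98 recomputed values of the main comparisons, 88 kept their direction or, for counts, stayed within 1.5 times. Some of these still moved in size by more: with a −log10 q of at least 3 the V density against the rest of the genome was −0.62 on the log2 scale and the percentile of V peaks minus D, J, C and enhancer peaks −9.82, and with lists of equal length the difference in the median percentile of the loci was 3.58. The mean percentile of V peaks minus D, J, C and enhancer peaks ranged from −6.97 to 1.35 when each library was left out in turn, turning positive without Il2ramut/mut replicate 2. Regions called in WT alone then ranged from 39 to 93 in the loci and from 29 to 64 in the V part of Tra and Trd, the highest without WT replicate 1, when a call in WT replicate 2 was enough, and those called in Il2ramut/mut alone from 1 to 8. Leaving out a library loosens the rule, and the shares of all regions with these patterns rise too, as given above. These counts are thus not to be set against the 2.7 and 3.56% of all regions found with 4 libraries. Of 27 named regions called in all 4 libraries, 6 had both Il2ramut/mut percentiles below both of WT and 4 above (12.6 and 26.2% over the genome). The 6 became 1 with a −log10 q of at least 3 and 7 to 14 when a library was left out. Fewer percentiles have to lie apart without a library, so the rule is then looser. The shares over the genome hold for the main setting only and were not computed for these settings. The cause was not tested.

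Of 188 percentile differences (Il2ramut/mut minus WT) at named regions, 32 changed sign, at regions where the main difference was small or the libraries of a genotype lay apart. With a −log10 q of at least 3 they were 3.30 at Traj26, 2.62 at Traj1, 0.584 at 9262 bases beyond Trac, 1.28 at Trbv12-2, 3.49 at Trbv23 and 0.0191 at 4203 bases from Trbv31. With lists of equal length they were −0.402 at Traj8, −0.104 at the strongest Trac-Dad1 summit, −1.06 at Trbv12-1 and −0.886 at Trbd1. When each library was left out, they ranged from −2.33 to 12.1 at Trav2, −20.0 to 6.85 at Traj26, −3.18 to 4.37 at Traj8, −7.54 to 4.47 at Traj1, −0.181 to 0.186 at the strongest Trac-Dad1 summit, −0.793 to 0.613 at 9262 bases beyond Trac, −1.08 to 1.12 at Trbv12-1, −2.09 to 0.902 at Trbv12-2, −4.50 to 3.36 at Trbv23, −1.16 to 2.06 at Trbd1, −1.50 to 0.0297 and −36.2 to 6.48 at 4203 and 62 bases from Trbv31, and −9.58 to 29.5 at Tcrg-V7.

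The titles of the libraries give a replicate number and name no batch. Replicate 2 had the longer list and more peaks in the V part of Tra and Trd in both genotypes. Whether libraries with the same replicate number share more than that number was not tested. Their deviations from the genotype means had a correlation of 0.0136 over 38426 regions called in all 4 libraries and of 0.166 over the 40 of the loci. With the replicate number as a block, the differences of −5.94 (all loci), −4.78 (V part), −1.09 (D, J, C and enhancer part) and −4.19 (V part of Tra and Trd) per 10000 and of 7.59 in percentile had an exact p of 0.5, the smallest it allows. With 2 libraries per genotype and unknown depth, a region missing from a list may lie just under its threshold.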
